A study of Mus musculus with 10 samples.

Results

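NRF2, encoded by Nfe2l2, is the transcription factor that switches on many antioxidant and detoxification genes, and KEAP1, encoded by Keap1, is the protein that holds it back. These 2 genes and 8 known NRF2 targets, Nqo1, Gclc, Gclm, Srxn1, Txnrd1, Ephx1, Osgin1 and G6pdx, were taken by name from a table of 22198 genes, and all 10 were found there. They were followed in brain cortex of 6-month-old mice, in 5 libraries labelled BKO, whose genotype is given as Mic19 knockout, and 5 labelled ctrl, whose genotype is Mic19 wild type. No treatment was given in either group. Mic19 is the protein of the gene Chchd3, a subunit of the MICOS complex of the inner mitochondrial membrane. The labels do not say in which cells, by what allele or at what age the gene was removed, nor whether every library is a separate mouse. The p-values therefore measure the spread between these libraries, which may be technical. The title of the study names mitochondrial DNA leakage, neuroinflammation, serine metabolism and epilepsy.

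In resting cells KEAP1 binds NRF2 and hands it to a CUL3 ubiquitin ligase, so that NRF2 protein is made and destroyed continuously. Oxidants and electrophiles modify cysteines of KEAP1, NRF2 then escapes, pairs with a small MAF protein and binds the antioxidant response element in its target genes. NRF2 is thus governed largely at the level of its protein, which an RNA measurement does not see. In brain, its targets are known to be induced more readily in astrocytes than in neurons.

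The antioxidant response element has the core TGACNNNGC, in which N is any base. Promoters of members are shown because this core is where NRF2 acts, and so that the genes that rose can be set beside the letters in front of them. In RefSeq windows on the GRCm38.p6 build, running from 250 bases before to 50 bases after an annotated start, 9 of the 10 members were listed, with 11 windows; Gclc was not. The core, searched on both strands, occurred in the windows of 5 of these 9 genes, Nfe2l2, Gclm, Srxn1, Txnrd1 and G6pdx, and in 12.4% of all 32851 windows (14.0% of genes). No match overlapped an AP-1 site, TGANTCA. The C/EBP-ATF element TGATGNAA, a site of stress factors such as ATF4, occurred in 0 of the 9 genes and in 3.97% of all windows (4.51% of genes). At that share, 0 of 9 genes says little. A match is a string of letters and no evidence of binding. The 250 bases before the start follow for the 4 members whose RNA rose, and shorter stretches for the other 2 with a match, 5′ to 3′ on the gene's strand, with the core in capitals.
Nfe2l2 (chr2:75704664-75704913, minus strand): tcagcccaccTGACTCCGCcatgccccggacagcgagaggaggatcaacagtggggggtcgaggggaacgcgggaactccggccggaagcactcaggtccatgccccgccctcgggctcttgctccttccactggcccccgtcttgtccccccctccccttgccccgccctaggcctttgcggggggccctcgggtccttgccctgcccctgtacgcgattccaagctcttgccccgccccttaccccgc
Gclm (chr3:122245307-122245556, plus strand): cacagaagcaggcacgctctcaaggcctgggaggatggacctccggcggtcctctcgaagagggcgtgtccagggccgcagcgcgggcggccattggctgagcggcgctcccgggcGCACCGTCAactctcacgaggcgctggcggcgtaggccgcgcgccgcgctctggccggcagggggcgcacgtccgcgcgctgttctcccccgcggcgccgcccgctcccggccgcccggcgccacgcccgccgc
Txnrd1 (chr10:82858956-82859205, plus strand): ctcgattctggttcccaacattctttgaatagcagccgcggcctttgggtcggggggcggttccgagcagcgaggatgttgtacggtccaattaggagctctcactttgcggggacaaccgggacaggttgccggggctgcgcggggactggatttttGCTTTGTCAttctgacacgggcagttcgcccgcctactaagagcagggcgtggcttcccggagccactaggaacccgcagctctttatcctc
Ephx1 (chr1:181017570-181017819, minus strand): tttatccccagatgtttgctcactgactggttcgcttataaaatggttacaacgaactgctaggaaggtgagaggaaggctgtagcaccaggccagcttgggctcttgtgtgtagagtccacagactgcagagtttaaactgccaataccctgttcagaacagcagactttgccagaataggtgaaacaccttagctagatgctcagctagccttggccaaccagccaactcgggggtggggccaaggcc
G6pdx (chrX:74428893-74428973, minus strand): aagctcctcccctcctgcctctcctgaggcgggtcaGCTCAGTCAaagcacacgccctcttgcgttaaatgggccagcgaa
Srxn1 (chr2:152105542-152105570, plus strand): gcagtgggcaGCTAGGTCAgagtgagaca
On the strand that carries the core, it read TGACTCCGC for Nfe2l2, TGACGGTGC for Gclm, TGACAAAGC for Txnrd1, TGACTGAGC for G6pdx and TGACCTAGC for Srxn1. Between the core and the annotated start lay 231 bases in Nfe2l2, 125 in Gclm and 48 in G6pdx. In Txnrd1 83 bases lay between the core and the second of 3 annotated starts. In Srxn1 it lay just inside the transcribed part, from base 29 to base 37. The Ephx1 window held no match, nor did those of Nqo1, Osgin1 and Keap1, which says only that these letters are absent from these windows.

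Each library had an FPKM value per gene (fragment counts scaled by gene length and by library size), so levels can be set side by side between genes, and 13438 to 13720 genes stood at 1 FPKM or more. Chchd3, the gene named as knocked out, stood at 94.2, 89.4, 88.3, 81.5 and 87.7 FPKM in the libraries labelled BKO, against 73.1, 77.3, 80.6, 79.0 and 82.3 FPKM in those labelled ctrl (difference 9.78 FPKM, exact permutation test, 2-sided, p = 0.0159). It was thus not reduced under the BKO label. Nor was it called higher by the limma rule used below for all genes (log2 difference 0.17, SE 0.0472, limma adjusted p = 0.0528), and the groups overlapped. Under 4 of the other settings listed in the methods it was called higher. A value for the whole gene cannot show whether an exon is missing, so BKO and ctrl below mean the libraries under those labels. Markers of neurons, astrocytes, oligodendrocytes and microglia were all present, as the tissue label would have it. Choroid plexus transcripts, which belong outside the cortex, were abundant in 6 libraries, BKO 1, BKO 2, BKO 5, ctrl 1, ctrl 3 and ctrl 5, where Ttr stood at 1098 to 2720 FPKM, and low in the other 4, at 38.9 to 89.9 FPKM. Results are therefore given within each kind of library as well.

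In the BKO cortex, 4 of the 10 genes rose: Ephx1, Nfe2l2, Gclm and Txnrd1. None fell, and the mean FPKM was 1.85 times that of ctrl for Ephx1, 1.54 times for Nfe2l2, 1.22 times for Gclm and 1.21 times for Txnrd1. Over all 14447 genes tested, 3.32% were higher and 2.46% lower by the same rule, 5.79% in either direction, which is an adjusted p under 0.05 in limma on log2(FPKM + 0.5). All fold changes below are on that log2 scale, which understates changes of low genes. All 10 members passed the filter on low values, at least 0.5 FPKM in at least 5 libraries. Osgin1 did so with 4 BKO and 2 ctrl libraries. At an unadjusted p under 0.05, 7 members were higher, where 9.12% of all genes were, and 0 lower, where 8.35% were. The median difference of the 10 members was 0.28, against a median of -5.25e-05 over all genes tested. The groups were fully separate, with BKO on top, for 4 members, Ephx1, Nfe2l2, Txnrd1 and Nqo1, as for 3.62% of all genes. None was fully separate with ctrl on top, where 3.09% of all genes were. The 10 members were chosen with earlier results of these data known, so setting them beside all genes is a description and no test.

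**Figure D1:**
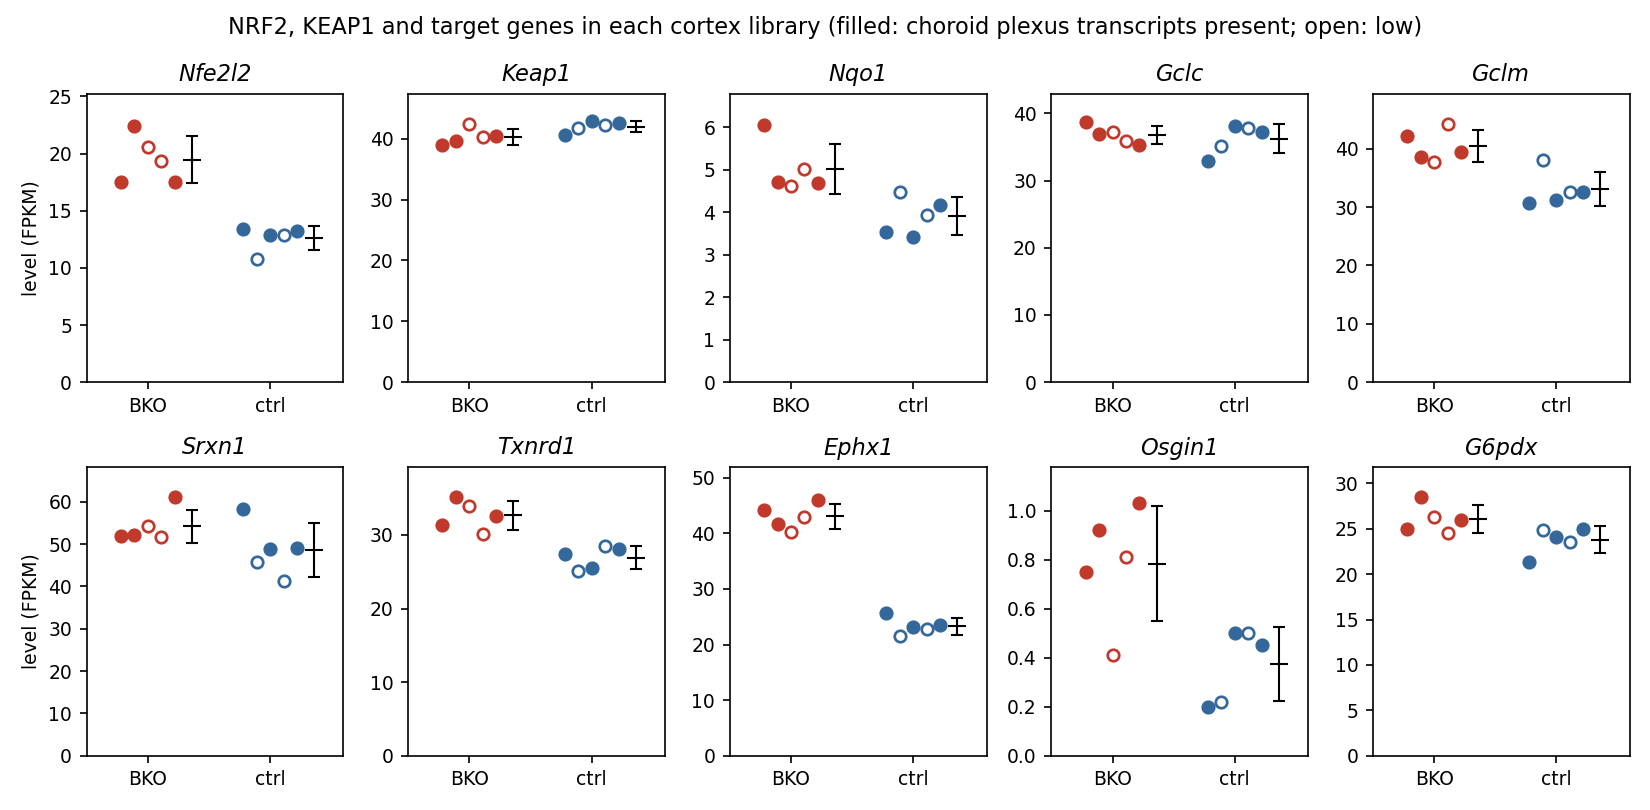
Level in FPKM (vertical axes, from 0) of the 10 genes in each BKO library (red, left) and ctrl library (blue, right), in the order 1 to 5, with the mean ± SD (n = 5) beside them; filled points are libraries with choroid plexus transcripts, open points libraries low in them. The groups stand apart for Ephx1, Nfe2l2, Txnrd1 and Nqo1, and overlap for the other 6 genes.

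Nfe2l2 stood at 17.5, 22.4, 20.6, 19.3 and 17.5 FPKM in BKO libraries 1 to 5, against 13.4, 10.8, 12.9, 12.9 and 13.2 FPKM in ctrl libraries 1 to 5. Every BKO library was above every ctrl library, and ctrl 2 was the lowest of all. The mean was 19.5 ± 2.07 FPKM in BKO and 12.6 ± 1.06 FPKM in ctrl (SD, n = 5 each), and the gene rose by 0.60 (SE 0.0815, limma adjusted p = 0.000242). Within libraries rich in choroid plexus transcripts the difference was 0.52 (SE 0.104, 3 BKO and 3 ctrl), and within those low in them 0.73 (SE 0.126, 2 BKO and 2 ctrl), called in each (limma adjusted p = 0.0256 and 0.0277).

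Keap1 stood at 38.9, 39.5, 42.5, 40.3 and 40.4 FPKM in BKO, against 40.5, 41.8, 42.9, 42.2 and 42.5 FPKM in ctrl. The groups overlapped, and the means were 40.3 ± 1.35 FPKM in BKO and 42.0 ± 0.910 FPKM in ctrl (SD, n = 5 each). The difference of -0.06 (SE 0.0422, 95% interval -0.15 to 0.03) did not pass the test (limma adjusted p = 0.527). Setting Nfe2l2 against Keap1 in the same library largely restates the difference in Nfe2l2, since Keap1 spanned only 38.9 to 42.9 FPKM. The ratio of their FPKM values was 0.451, 0.566, 0.484, 0.480 and 0.434 in BKO, against 0.330, 0.258, 0.300, 0.305 and 0.311 in ctrl. On the log2 scale it was 0.68 higher in BKO (2-sided exact permutation p = 0.00794, the smallest that 5 against 5 libraries can give, and 0.0159 adjusted over the 2 ratios tested here). Both ratios were chosen after the values of their genes had been seen. With Nfe2l2 already fully separate and Keap1 so even, this ratio had to separate the groups, so its p adds no evidence.

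Glutathione synthesis starts with glutamate-cysteine ligase, made of a catalytic subunit, Gclc, and a modifier subunit, Gclm, that raises its efficiency. Gclm stood at 42.1, 38.6, 37.8, 44.3 and 39.5 FPKM in BKO, against 30.7, 38.0, 31.2, 32.7 and 32.6 FPKM in ctrl. The groups overlapped only through ctrl 2, which lay just above BKO 3. The gene rose by 0.29 (SE 0.0641, limma adjusted p = 0.0133), with means of 40.4 ± 2.68 FPKM in BKO and 33.0 ± 2.90 FPKM in ctrl (SD, n = 5 each). The call on Gclm held in libraries rich in choroid plexus transcripts (0.34, limma adjusted p = 0.0230) and was lost in the 2 BKO and 2 ctrl libraries low in them (0.21, limma adjusted p = 0.506).

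Gclc stood at 38.8, 36.9, 37.3, 35.9 and 35.4 FPKM in BKO, against 33.0, 35.2, 38.2, 37.8 and 37.2 FPKM in ctrl. The groups overlapped almost fully, and the difference was 0.02 (SE 0.0515, 95% interval -0.09 to 0.13, limma adjusted p = 0.872). The ratio of Gclm to Gclc tests whether the subunits differ in their change. It was 1.09, 1.04, 1.01, 1.23 and 1.12 in BKO, against 0.932, 1.08, 0.816, 0.864 and 0.877 in ctrl. On the log2 scale it was 0.27 higher in BKO (2-sided exact permutation p = 0.0238, also 0.0238 when adjusted over both ratios). In ctrl the catalytic subunit had the higher FPKM in 4 of 5 libraries, while in BKO the modifier had it in all 5.

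**Figure D2:**
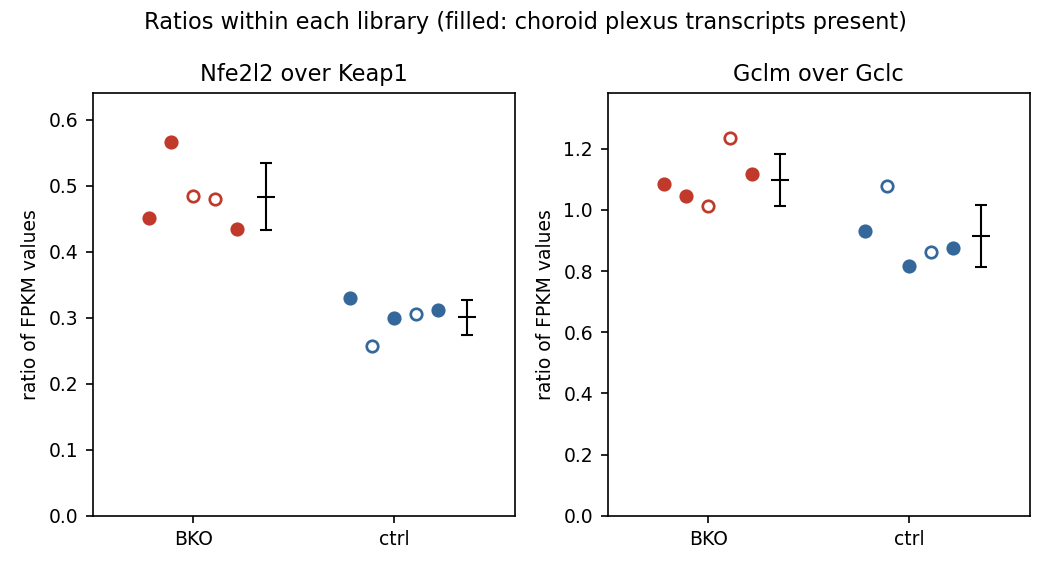
Ratio of the FPKM values of 2 genes within each library (vertical axes, from 0), for BKO (red, left) and ctrl (blue, right) libraries 1 to 5, with the mean ± SD (n = 5); filled points are libraries with choroid plexus transcripts and open points libraries low in them. The Nfe2l2 to Keap1 ratio ran from 0.434 to 0.566 in BKO and from 0.258 to 0.330 in ctrl, while for Gclm to Gclc ctrl 2 lay among the BKO libraries.

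Among the detoxification enzymes, Ephx1 had the largest difference of the 10 genes with a pseudocount of 0.5. With 0.1 the barely detected Osgin1 came above it, at 0.92 against 0.89 for Ephx1. Ephx1 encodes microsomal epoxide hydrolase, which turns reactive epoxides into diols. Its level was 44.2, 41.7, 40.3, 43.0 and 46.0 FPKM in BKO, against 25.6, 21.5, 23.1, 22.7 and 23.5 FPKM in ctrl. The lowest BKO library stood well above the highest ctrl library. Ephx1 rose by 0.87 (SE 0.0560, limma adjusted p = 1.46e-07), with means of 43.1 ± 2.19 FPKM in BKO and 23.3 ± 1.52 FPKM in ctrl (SD, n = 5 each), and held rank 29 by p among the genes tested. The difference was 0.86 (SE 0.0727) in libraries rich in choroid plexus transcripts and 0.90 (SE 0.0907) in those low in them.

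Nqo1, the quinone reductase often used as a readout of NRF2, was low in this tissue. It stood at 6.05, 4.71, 4.62, 5.02 and 4.70 FPKM in BKO, against 3.53, 4.48, 3.43, 3.93 and 4.18 FPKM in ctrl. The groups did not overlap, but the lowest BKO library and the highest ctrl library were close, and BKO 1 stood above the rest of its group. The difference of 0.32 (SE 0.103) missed the threshold (limma adjusted p = 0.0929, unadjusted p = 0.00732), as it did under each of the 19 other settings chosen at the start (limma adjusted p = 0.0582 to 0.215).

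Txnrd1 and Srxn1 act on oxidised thiols. Txnrd1, the cytosolic thioredoxin reductase, stood at 31.4, 35.2, 33.9, 30.2 and 32.7 FPKM in BKO, against 27.5, 25.04, 25.6, 28.5 and 28.1 FPKM in ctrl. The groups did not overlap, BKO 4 and ctrl 4 being the closest. The gene rose by 0.27 (SE 0.0572, limma adjusted p = 0.00875), with means of 32.7 ± 1.97 FPKM in BKO and 26.9 ± 1.55 FPKM in ctrl (SD, n = 5 each). Within libraries rich in choroid plexus transcripts (3 BKO and 3 ctrl) the difference was 0.29, and within those low in them (2 BKO and 2 ctrl) 0.26. Neither was called (limma adjusted p = 0.0869 and 0.377).

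Srxn1, sulfiredoxin, which repairs overoxidised peroxiredoxins, had the highest mean FPKM of the 10 genes in each group. It stood at 51.8, 52.2, 54.3, 51.7 and 61.0 FPKM in BKO, against 58.4, 45.7, 48.8, 41.2 and 49.0 FPKM in ctrl. The groups overlapped through ctrl 1, and the difference of 0.16 (SE 0.0788, 95% interval -0.01 to 0.33) did not pass the test (limma adjusted p = 0.310).

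G6pdx encodes glucose-6-phosphate dehydrogenase, the entry to the pentose phosphate pathway, whose NADPH feeds the glutathione and thioredoxin reductases. It stood at 25.02, 28.6, 26.3, 24.6 and 25.9 FPKM in BKO, against 21.4, 24.9, 24.1, 23.6 and 25.02 FPKM in ctrl. The groups overlapped, and the difference was 0.13 (SE 0.0594, 95% interval 0.00 to 0.26, limma adjusted p = 0.276). Of the 8 genes of the pentose phosphate pathway tested, G6pdx among them, none passed the test in limma, where 3.32% of all genes rose and 2.46% fell. At an unadjusted limma p under 0.05, 1 was higher and 1 lower, where 9.12% and 8.35% of all genes were.

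Osgin1, an oxidative stress-induced growth inhibitor, was barely detected. It stood at 0.75, 0.92, 0.41, 0.81 and 1.03 FPKM in BKO, against 0.20, 0.22, 0.50, 0.50 and 0.45 FPKM in ctrl. BKO 3 lay among the ctrl libraries and the other 4 BKO libraries above them. Its difference of 0.55 (SE 0.195) did not pass the test (limma adjusted p = 0.136), and its size depended on the pseudocount, being 0.92 with 0.1 and 0.37 with 1.

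**Figure D3:**
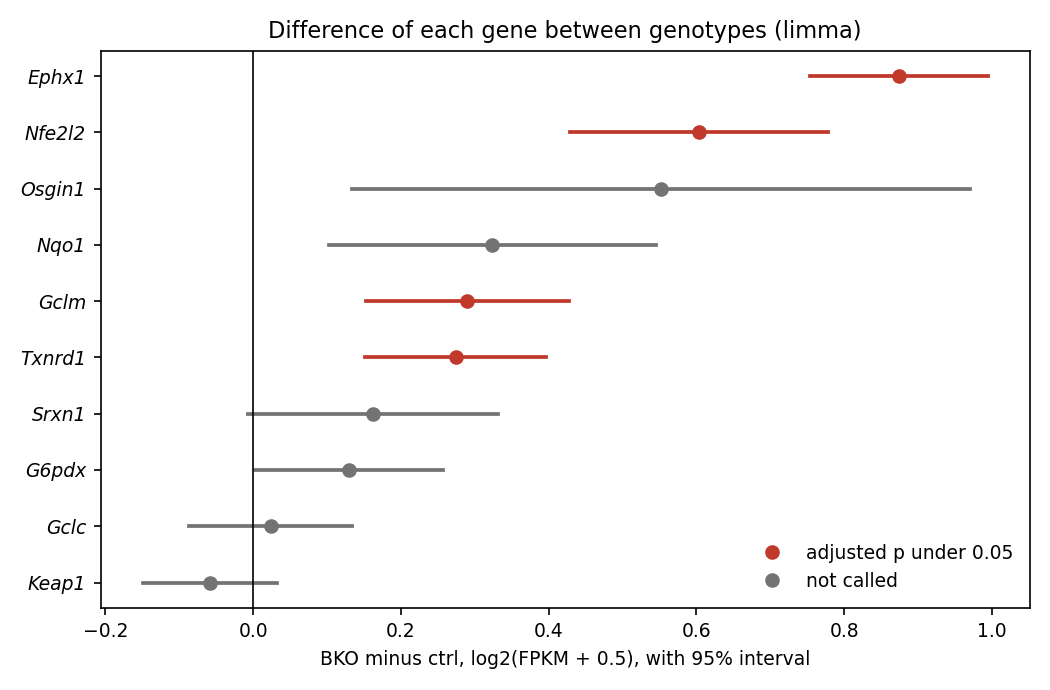
Difference between BKO and ctrl for each of the 10 genes on the log2(FPKM + 0.5) scale (horizontal axis), as the limma estimate with its 95% interval, n = 5 libraries a group; red marks an adjusted p under 0.05 over all genes tested. Ephx1 lies farthest from 0, at 0.87, and the intervals of Keap1, Gclc and Srxn1 include 0.

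By mean FPKM, the order in BKO was Srxn1, Ephx1, Gclm, Keap1, Gclc, Txnrd1, G6pdx, Nfe2l2, Nqo1 and Osgin1. In ctrl it was Srxn1, Keap1, Gclc, Gclm, Txnrd1, G6pdx, Ephx1, Nfe2l2, Nqo1 and Osgin1. Ephx1 thus held the second place in BKO and the seventh in ctrl. In BKO the ranges over libraries overlapped for Ephx1 with Gclm and for Gclm with Keap1, and in ctrl for Srxn1 with Keap1, Gclc with Gclm and G6pdx with Ephx1, so the order within those pairs is not settled. The other neighbours had separate ranges. Genes farther apart in the order overlapped as well, Ephx1 with Keap1 and Gclm with Gclc in BKO, and Ephx1 with Txnrd1 in ctrl.

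Set beside the promoters shown earlier, 3 of the 4 members that rose held the core, Nfe2l2, Gclm and Txnrd1, as did 2 of the 5 others that had a window, G6pdx and Srxn1. Gclc was not searched. Ephx1, which had the largest difference of the 4, held none in its window. With so few genes no test was made.

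Of 13 tested partners and regulators of NRF2, 2 rose and 1 fell, where 3.32% of all genes tested rose and 2.46% fell. Their median difference was 0.05. This list and those below were chosen with earlier results of these data known. Nfe2l1, the NRF1 factor that shares NRF2's binding site and drives proteasome genes, rose by 0.24 (SE 0.0383, limma adjusted p = 0.00112), to 167 ± 5.10 FPKM in BKO, against 141 ± 4.69 FPKM in ctrl (SD, n = 5 each). Mafg, a small MAF partner of NRF2, rose by 0.25 (SE 0.0573, limma adjusted p = 0.0155), to 48.9 ± 1.51 FPKM in BKO, against 41.0 ± 3.67 FPKM in ctrl. Nfe2l3, another member of the family, fell by 0.57 (SE 0.131, limma adjusted p = 0.0166) to 2.71 ± 0.529 FPKM in BKO, against 4.25 ± 0.602 FPKM in ctrl. The repressor Bach1, at -0.11 (SE 0.105), the ligase subunit Cul3, at -0.04 (SE 0.0522), and the KEAP1-binding autophagy adaptor Sqstm1, at 0.05 (SE 0.0344), did not pass the test. Nfe2 lay below the filter, as did Gpx2 and Gsta1 of the target list, Gsta1 being listed at 0 throughout.

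Of 28 tested genes among 30 other known NRF2 targets, 7 rose and 3 fell, where 3.32% of all genes tested rose and 2.46% fell. Their median difference was 0.01. Hmox1, haem oxygenase, stood at 36.5 ± 5.12 FPKM in BKO and 4.97 ± 0.900 FPKM in ctrl (SD, n = 5 each), a rise of 2.76 (SE 0.123, limma adjusted p = 3.65e-09). Slc7a11, the cystine importer that supplies glutathione synthesis, stood at 21.9 ± 2.18 FPKM in BKO and 5.70 ± 0.515 FPKM in ctrl, a rise of 1.85 (SE 0.0841, limma adjusted p = 4.47e-09). Slc7a11 is also a known target of ATF4. Of the 24 targets with a promoter window, it was the only 1 to hold the C/EBP-ATF element. That count is near the share of all genes with the element, 4.51%. The antioxidant core was found for 9 of the 24, Slc7a11 not among them, and for 14.0% of all genes. Hmox1 was not searched. The differences of Hmox1 and Slc7a11 were larger than that of any of the 10 members.

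The others that rose did so by less. Mgst1, a microsomal glutathione transferase, rose by 0.72 (SE 0.135), and Abcc4, an export pump, by 0.63 (SE 0.109). Me1, the NADPH-making malic enzyme, rose by 0.38 (SE 0.0535). The ferritin light chain Ftl1 rose by 0.32 (SE 0.0607), while the heavy chain Fth1 fell by 0.28 (SE 0.0538) to 3827 ± 139 FPKM in BKO, against 4654 ± 308 FPKM in ctrl (SD, n = 5 each). The call on Fth1 was lost when low genes were kept in (limma adjusted p = 0.0703). It was lost after quantile normalization too, where the difference was -0.13 (limma adjusted p = 0.102). Gstm5, a glutathione transferase, fell by 0.49 (SE 0.0650, limma adjusted p = 0.000221).

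Prdx6, a peroxiredoxin, rose by 0.18 (SE 0.0412, limma adjusted p = 0.0196), a call lost without BKO 3, BKO 4, ctrl 2 or ctrl 3 (limma adjusted p = 0.0515 to 0.061). Gstm1 fell by 0.26 (SE 0.0671, limma adjusted p = 0.0340), a call lost without any 1 library other than BKO 2 and ctrl 3 (limma adjusted p = 0.055 to 0.0918). That call was also lost with library weights, an equal FPKM sum per library, the choroid plexus level as a term, no filter and quantile normalization (limma adjusted p = 0.053, 0.0545, 0.0503, 0.0704 and 0.0727 in that order). Glutathione transferases and ferritins have close relatives and pseudogenes that may share their reads, which makes the value of any 1 such gene uncertain. Gsr, glutathione reductase, lay higher in all 5 BKO libraries than in all ctrl libraries and missed the threshold (0.21, limma adjusted p = 0.0835). Within libraries rich in choroid plexus transcripts 4 of these other targets were called higher and 1 lower, and within those low in them 3 higher and 2 lower. Of the regulators 0 were called higher and 1 lower in the rich, and 0 higher and 0 lower in the low. Over all 14447 genes tested, 221 were called higher and 172 lower in the rich, and 148 higher and 103 lower in the low.

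**Figure D4:**
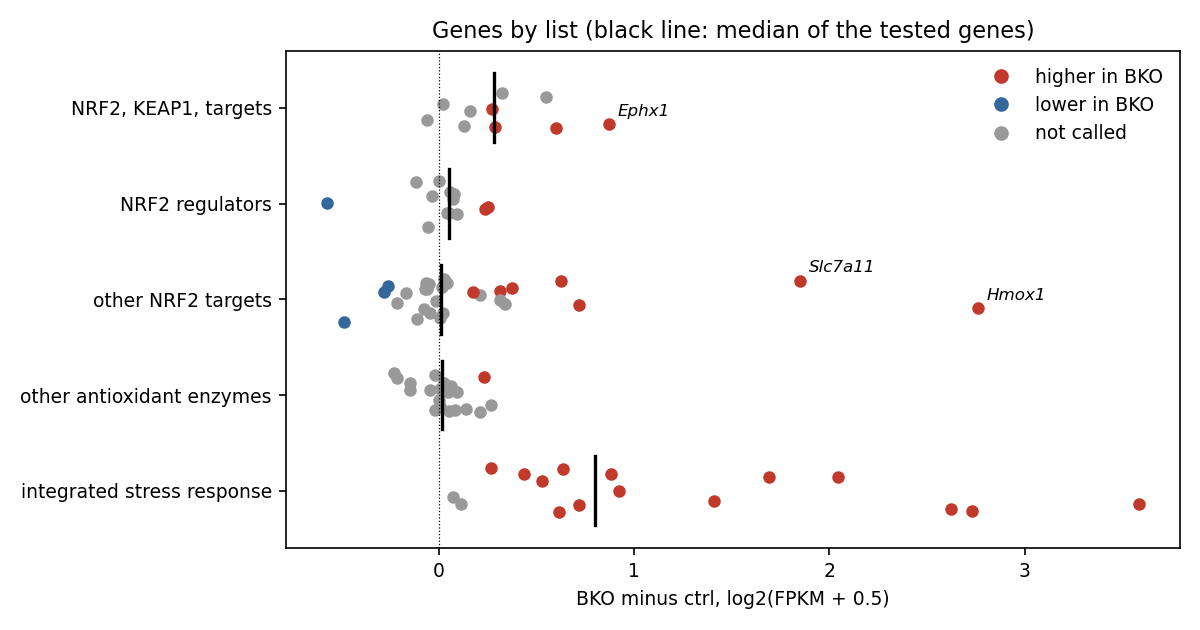
Difference between BKO and ctrl on the log2(FPKM + 0.5) scale (horizontal axis) for each tested gene of 5 lists, red where higher and blue where lower at an adjusted p under 0.05 in limma (n = 5 libraries a group), grey otherwise, with a black line at each list's median; the vertical scatter within a list has no meaning. The medians are 0.28 for the 10 genes, 0.05 for regulators, 0.01 for other targets, 0.02 for other antioxidant enzymes and 0.80 for the stress response.

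The 20 antioxidant enzymes tested that are not counted as typical NRF2 targets had a median difference of 0.02. At an unadjusted limma p under 0.05, 3 were higher and 2 lower, where 9.12% and 8.35% of all genes were. By the adjusted p 1 rose and none fell, where 3.32% of all genes rose and 2.46% fell. The 1 was Cat, catalase, by 0.23 (SE 0.0625, limma adjusted p = 0.0402), whose call was lost without any 1 library other than BKO 5 and ctrl 5 (limma adjusted p = 0.057 to 0.107), without the filter (limma adjusted p = 0.0575), with the choroid plexus level as a term (limma adjusted p = 0.0583) and with the replicate block (limma adjusted p = 0.0955). Of 16 genes of the integrated stress response, the ATF4 programme, 14 rose and none fell, none being lower at an unadjusted p under 0.05 either, with a median of 0.80. These counts include Gdf15, which passed the filter with 5 BKO and 0 ctrl libraries, and Atf3, which passed with 5 BKO and 1 ctrl library, so that both had to differ. Among the 14 genes at the filter in all ctrl libraries 12 rose, with a median of 0.68. Nupr1 rose by 2.62 (SE 0.0739), Atf5 by 2.04 (SE 0.0854) and Trib3 by 2.73 (SE 0.135). This stress list was drawn up with its rise in these libraries already known.

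Cell type markers moved between the groups beside these genes. Over all genes tested, 3.32% were called higher and 2.46% lower. All 8 oligodendrocyte markers fell, their summed level being 974 to 1322 FPKM in BKO and 2888 to 3455 FPKM in ctrl. Of 9 astrocyte markers 4 rose, Gfap by 2.33, Aqp4 by 0.64, Aldh1l1 by 0.51 and Slc1a3 by 0.19, and the median of the 9 was 0.09. Their summed level was 2234 to 2491 FPKM in BKO and 1828 to 2045 FPKM in ctrl. Without Gfap, which averaged 435 FPKM in BKO and 85.4 FPKM in ctrl, the sums overlapped, at 1856 to 1996 FPKM in BKO and 1735 to 1959 FPKM in ctrl. Of 7 microglia markers 1 rose, C1qa by 0.39, and the summed level was 326 to 364 FPKM in BKO and 289 to 346 FPKM in ctrl. Of 8 neuron markers 1 fell, Snap25 by 0.18, and the summed level was 4764 to 5166 FPKM in BKO and 5050 to 5656 FPKM in ctrl. Of 6 endothelial markers 1 rose, Slco1c1 by 0.31, and none of 5 mural, 7 meningeal, 5 red blood cell and 8 choroid plexus markers passed the test in limma. At an unadjusted limma p under 0.05, 9.12% of all genes were higher and 8.35% lower. By that rule 2 neuron markers were lower, 2 microglia markers higher and 1 lower, and 2 endothelial markers higher. Of the mural markers 1 was lower and of the meningeal 1 higher. For the other types the counts were those of the adjusted p. None of these markers was at 0 in a whole group. In bulk tissue, a change in the number of cells of a type and a change in RNA per cell cannot be told apart, and the part of these shifts in the values of the 10 genes was not tested.

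The summed choroid plexus markers ran from 73.1 to 2764 FPKM in BKO and from 46.0 to 2619 FPKM in ctrl, with 3 libraries of each group at the high end. With their level as a term in the fit, the same 4 members were called, Ephx1 at 0.86, Nfe2l2 at 0.60, Gclm at 0.30 and Txnrd1 at 0.27 (limma adjusted p = 1.8e-07, 0.000491, 0.00782 and 0.0148 in that order). Srxn1 differed by 0.08 (SE 0.0912) in libraries rich in these transcripts and by 0.29 (SE 0.0851) in those low in them. Nqo1 differed by 0.42 (SE 0.142) in the rich and by 0.18 (SE 0.173) in the low. Neither gene was called in either kind, and the difference between the kinds was not tested.

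**Figure D5:**
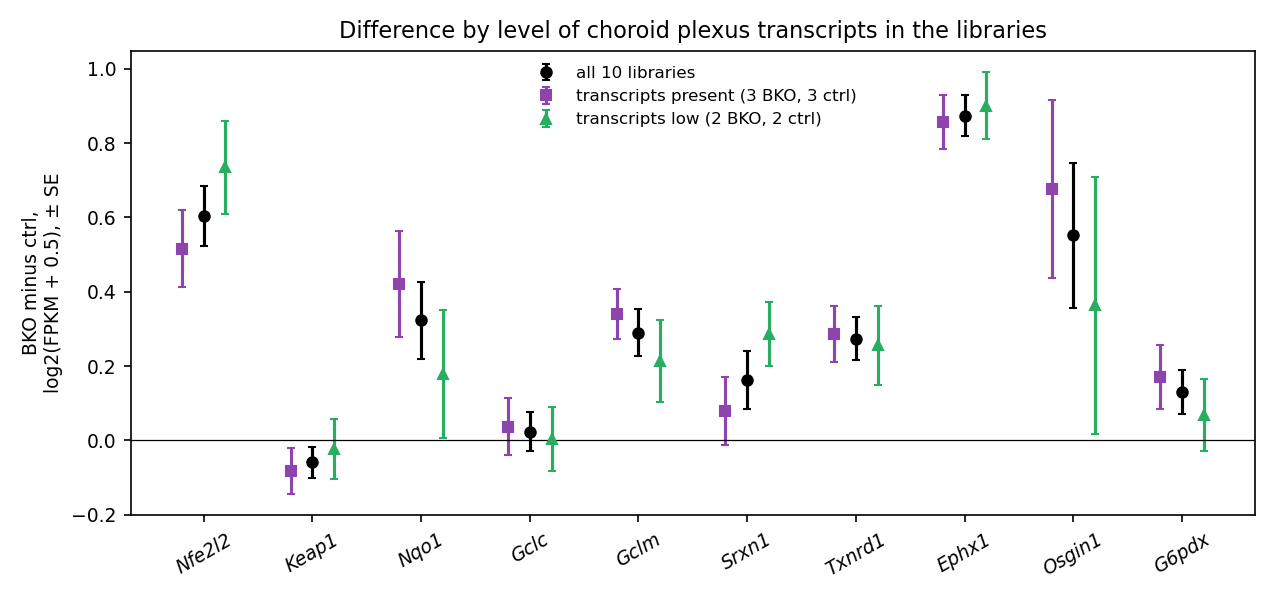
Difference between BKO and ctrl for each gene on the log2(FPKM + 0.5) scale (vertical axis, ± SE from limma), over all 10 libraries (black circles), over the 6 with choroid plexus transcripts (purple squares) and over the 4 low in them (green triangles). Ephx1 stands between 0.86 and 0.90 and Nfe2l2 between 0.52 and 0.73 in all 3.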

How the data were processed

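RNA of brain cortex from 5 BKO and 5 ctrl libraries, extracted with Trizol and made into libraries with an MGIEasy kit, per the labels' protocols, was analysed from 1 deposited table of FPKM values, rounded to 2 decimals. The authors used STAR, HTSeq and the mm39 build, per the submitters' processing notes; versions, filters and the FPKM formula are not given in the sources used here. Read totals were not used; low values put relative depth at 0.890 to 1.14, only roughly, as 16 of 45 library pairs fitted within 0.03 log2. FPKM sums ran from 730340 to 766786 per library.

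The 14447 genes that reached 0.5 FPKM in 5 or more of the 10 libraries were fitted as log2(FPKM + 0.5) with limma 3.58.1 in R 4.3.3 (variance trend, 2-sided, Benjamini-Hochberg over all genes tested, called at 0.05). The fit was tested on simulated data. SE is limma's moderated error and SD the spread between libraries. Single ratios and Chchd3 had exact permutation tests. Other settings tried were 3 rescalings, a pseudocount of 0.1 or of 1, a filter at 2 FPKM or none, the replicate number as a block, library weights and leaving out each library; 3 on choroid plexus transcripts (Ttr split at 500 FPKM) were chosen after seeing the data. The members and lists were chosen with earlier results of these data known. Every member is named; of other lists, those called or the 8 with the smallest p could be named, and further genes were named for context after their values were seen. Promoters came from RefSeq, GRCm38.p6, and carry their own coordinates. Python 3.11.15, numpy 2.4.6, pandas 2.3.3 and matplotlib 3.10.9 were used.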

Additional observations from a re-analysis of the deposited data

Results flagged for a closer look

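Within the 20 sets of 5 libraries checked, the 10 genes in each group, 4 had 1 library far from the rest, where chance flags about 1 in 20. Nfe2l2 in ctrl 2 stood at 10.77 FPKM, below the next ctrl library at 12.86 FPKM. Gclm in ctrl 2 stood at 37.98 FPKM, above the next at 32.65 FPKM, so the same library was the lowest of its group for the regulator and the highest for this target. Nqo1 in BKO 1 stood at 6.05 FPKM, above the next BKO library at 5.02 FPKM. Srxn1 in BKO 5 stood at 61.02 FPKM, above the next at 54.25 FPKM. Without ctrl 2 the differences were 0.55 for Nfe2l2 and 0.34 for Gclm, without BKO 1 0.26 for Nqo1, and without BKO 5 0.12 for Srxn1.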

How the results depend on the processing

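Of 189 values of the 10 genes under the alternatives chosen at the start, 188 kept their direction and their side of the threshold. The exception was Gclc, which ran from -0.0099 (without ctrl 1, limma adjusted p = 0.951) to 0.042 when each library was left out. With the 3 settings on choroid plexus transcripts there were 219 values, of which 215 kept both. In 3 of them a call was lost. These were Gclm in the libraries low in those transcripts, and Txnrd1 in the low and in the rich libraries (limma adjusted p = 0.506, 0.377 and 0.0869 in that order). The number of the 10 genes called stayed at 4 higher and 0 lower when each library was left out in turn, while over all genes 380 to 513 were higher and 264 to 349 lower. Nfe2l2 ran from 0.55 to 0.64, Gclm from 0.26 to 0.34, Txnrd1 from 0.25 to 0.30 and Ephx1 from 0.85 to 0.91. Osgin1 had no value with the filter at 2 FPKM.

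The labels do not say whether same-numbered libraries belong together. Correlations between same-numbered libraries ran from -0.169 to 0.0855, and only BKO 1 and BKO 5 correlated best with their own number. The negative values, -0.169 and -0.106, were those of numbers 2 and 3, each with 1 library rich in choroid plexus transcripts and 1 low. These correlations thus cannot decide whether the numbers pair the libraries. With the replicate number as a block, 415 genes were higher and 287 lower, and 4 of the 10 genes were higher.

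Each kind of library fitted alone gave fewer calls than all 10 libraries together. Whether this came from the number or the kind of libraries was not tested. Within the 2 BKO and 2 ctrl libraries low in choroid plexus transcripts, 148 genes were higher and 103 lower, with 2 of the 10 genes higher. Within the 3 BKO and 3 ctrl libraries rich in them, 221 were higher and 172 lower. Of the other NRF2 targets, 1 in place of 3 was lower without the filter on low values and after quantile normalization. No read totals were used, so counting error at low levels such as that of Osgin1 could not be set.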
